A study of Mus musculus with 8 samples.

Results

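The 2-cell-like (2C-like) state is a rare condition of mouse embryonic stem cells (ESCs) in which genes of the 2-cell embryo are switched on. Many of its best known genes, such as the Zscan4, Tdpoz and Usp17l families, sit in tandem arrays of near-identical copies, where a short read cannot always be given to 1 gene. The results here concern 10 genes of the state that stand outside those arrays: Zfp352, Tmem92, Arg2, Abcb5, Dcdc2c, Fgf1, Ddit4l, Spz1, Calhm3 and Ubtfl1. They were found in the count and TPM tables by their Ensembl identifiers and make up 10 of 55573 genes. They were selected on their levels and changes in these same libraries, which were known when the list was made. Those levels and the differences between groups are therefore given as a description. Where calls from the fit over all genes are printed for the 10, they are no test of them and nothing is supported by them.

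The series holds 8 bulk libraries of polyadenylated RNA, 2 in each of 4 groups. The first group, mESC, was untreated wild-type ESCs. The second, 2C::GFP+, was untreated cells carrying a fluorescent reporter of the 2C-like state. The third, 2C::GFP+/SGC, was reporter cells given 2 µM SGC0946, an inhibitor of the histone methyltransferase DOT1L, in a medium with 20% KnockOut serum replacement and 10 ng/ml LIF. The fourth, 2C::GFP+/SA, received 2 µM SGC0946 and 2 µM AS8351, an inhibitor of KDM5B (a histone demethylase). Its medium held 20% KnockOut serum replacement, with 10 ng/ml IL6/sIL-6R in place of LIF. A difference between 2C::GFP+/SA and 2C::GFP+/SGC therefore covers both AS8351 and the change of cytokine, which cannot be told apart. For mESC and untreated 2C::GFP+, LIF is recorded at 10 ng/ml. A difference between 2C::GFP+/SA and 2C::GFP+ thus covers both inhibitors and the change of cytokine. Whether those 2 groups had serum replacement is not settled by the labels, and for them medium and group cannot be told apart either. Sorting on the reporter is not mentioned in the labels. Nor do they call the replicates separate cultures, so p-values measure only the spread between these libraries, which may be technical. The 2 columns used for untreated 2C::GFP+ are named KOSR and were assigned to it by elimination, and every comparison with that group rests on this.

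In the embryo, the transcription factor DUX acts at the onset of zygotic genome activation, and in ESCs its expression is enough to start the 2C-like programme. DUX binds its motif, often inside endogenous retroviral elements of the MERVL class whose long terminal repeats then act as promoters of nearby genes. Repressors of chromatin such as TRIM28 and the histone chaperone CAF-1 normally hold the programme down, while DPPA2 and DPPA4 favour it. The 10 genes do not form a pathway: they encode nuclear factors, membrane proteins, an enzyme, a growth factor, an inhibitor of growth signalling and a protein with microtubule-binding domains.

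The first library of each group was 7.46 to 9.62 times deeper than the second: the first libraries held 96895327 to 145810034 counts and the second 12299931 to 19544870. A count of 0 in a second library allowed up to 0.153 to 0.244 CPM (read counts scaled to library size), counting error only. Summed CPM of 6 pluripotency markers lay between 2760 and 4650 in all libraries, with 6 of 6 above 0 in every group. Of these 6, 4 were called lower in 2C::GFP+/SA than in 2C::GFP+ (edgeR, median log2 difference -0.63), against 13.8% of all tested genes. Against 2C::GFP+/SGC, 1 of 6 was called lower in 2C::GFP+/SA, where 8.18% of tested genes were, and nothing is read from that 1 call. The 10 genes were higher in both comparisons, and the part of these markers in the results was not tested. Summed feeder fibroblast markers were 9.24 to 14.2 CPM (mESC), 16.7 to 18.2 (2C::GFP+), 24.4 to 25 (2C::GFP+/SGC) and 40.2 to 43.1 (2C::GFP+/SA). Of these 10 markers 7, 8, 9 and 10 were above 0 in that order of groups, with Postn at 0 in the first 3 groups, Dcn and Acta2 in mESC and Lum in 2C::GFP+. Primitive endoderm markers summed to 20.9 to 21.2 CPM (mESC), 37.6 to 61.8 (2C::GFP+), 51.7 to 75 (2C::GFP+/SGC) and 188 to 395 (2C::GFP+/SA), with 8 of 8 above 0 in every group. Spermatogenic germ cell markers summed to 16.7 to 17.4, 105 to 150, 191 to 317 and 168 to 215 CPM in the same order, 5 or 6 of 7 above 0, and Tnp1 or Prm1 was at 0 in each group. The 2 most abundant markers of each of these 3 lists did not all move alike from 2C::GFP+/SGC to 2C::GFP+/SA. In mean CPM, Thy1 went from 9.96 to 20.3 and Pdgfrb from 6.73 to 3.11 (fibroblast). Col4a1 went from 47.6 to 191 and Pdgfra from 3.32 to 25.4 (endoderm). Dazl went from 118 to 140 and Stra8 from 107 to 17.5 (germ cell). These 3 lists moved with the groups in part as the genes below did, and their part in the results was not tested. Trophectoderm, macrophage and neuroectoderm markers summed to at most 117, 36.3 and 159 CPM in any library and did not follow that order.

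Levels of the 10 genes followed the same order of groups: lowest in mESC, then 2C::GFP+, then 2C::GFP+/SGC, and highest in 2C::GFP+/SA. Their TPM, a unit that corrects for transcript length and so allows genes to be compared, summed to 17.1 and 17.2 in the mESC libraries. In the reporter groups the sums were 146 and 148 (2C::GFP+), 424 and 314 (2C::GFP+/SGC) and 3141 and 2023 (2C::GFP+/SA). In mESC most of the sum was Ddit4l. Mean TPM in 2C::GFP+ was 4.0 to 9.45% of that in 2C::GFP+/SA. In 2C::GFP+/SGC it was 11.1 to 48.3%, and 26.1% at most without Dcdc2c, whose counts were low. In these bulk libraries, more cells in the 2C-like state and more RNA per such cell cannot be told apart.

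**Figure D1:**
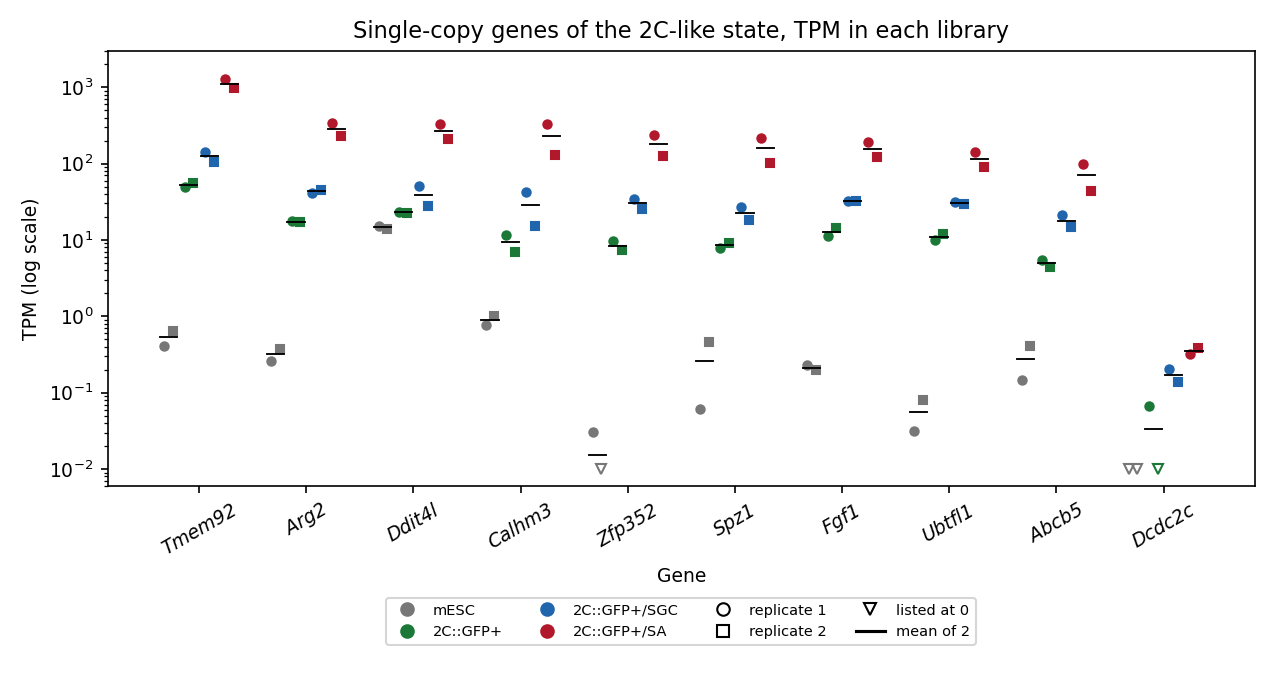
TPM (log axis) of each of the 10 genes in each library, coloured by group, with circles for replicate 1, squares for replicate 2, black bars for the mean of 2 libraries and open triangles where the table lists 0. Tmem92 lies at 968 and 1261 TPM in 2C::GFP+/SA, above every other gene shown, and Ddit4l is the 1 gene with more than 10 TPM in mESC.

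Ordered by level, Tmem92 came first in all 3 reporter groups and Dcdc2c last, and neither overlapped its neighbour in the order in any of them. Arg2, Ddit4l, Fgf1, Ubtfl1, Calhm3, Zfp352 and Spz1 lay between, and in 2C::GFP+/SA each of these overlapped the next one down, so their order there is within the spread of 2 libraries. Abcb5 stood ninth of 10 in each reporter group. Tmem92 alone gave 33.5 to 47.9% of the summed TPM in the 6 reporter libraries, followed by Ddit4l at 8.89 to 16.1% and Arg2 at 9.85 to 14.3%. In mESC the order was different: Ddit4l at 14.0 and 15.2 TPM stood above Calhm3 at 0.777 and 1.02 and Tmem92 at 0.413 and 0.651.

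Zfp352 encodes a zinc finger protein of the 2-cell embryo and lies at chr4:90218820-90225702 on the plus strand (GRCm38, ENSMUSG00000070902), with 2 exons in its longest transcript. Zfp352 stood at 0.0305 and 0 TPM (mESC), 9.59 and 7.32 (2C::GFP+), 34.7 and 25.5 (2C::GFP+/SGC) and 235 and 126 (2C::GFP+/SA). All groups were apart, and mESC was close to nothing, with 3 counts in its deep library and 0 in the other. The ratio of 2C::GFP+ to mESC, from 906 against 3 counts, was 346 with a 95% counting interval of 118 to 1680. The log2 difference was 1.69 ± 0.44 (SE) from 2C::GFP+ to 2C::GFP+/SGC and 2.79 ± 0.44 from there to 2C::GFP+/SA.

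Upstream of its start Zfp352 carries a short tandem repeat, shown here because it sets this gene apart from the other 5 genes whose windows were found. The 250 bases before the RefSeq start, chr4:90218570-90218819 on the plus strand of GRCm38.p6, are printed with capitals on TAATCC, the reverse complement of GGATTA, which is the core bound by OBOX-type homeodomain proteins.
Zfp352: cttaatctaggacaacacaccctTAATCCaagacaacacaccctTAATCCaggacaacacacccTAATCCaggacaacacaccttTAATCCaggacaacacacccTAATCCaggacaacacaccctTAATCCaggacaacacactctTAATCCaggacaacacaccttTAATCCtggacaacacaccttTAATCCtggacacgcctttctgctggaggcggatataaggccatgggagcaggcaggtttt
The core occurs 9 times in the window of 300 bases (250 before and 50 after the start), spaced 20 or 21 bases apart between bases -227 and -61. At least 1 GGATTA on either strand is held by 7.06% of 32851 RefSeq windows, and 1 window has 9 or more. The DUX motif of 11 bases was found in 0.0335% of windows and in none of the 7 windows of these genes, and TATAAA in 13.6% of windows and in that of Ddit4l alone among them. RefSeq windows were found for 6 of the 10 genes: Zfp352, Ubtfl1, Ddit4l, Dcdc2c (2 windows), Abcb5 and Spz1. A match of letters is a description and no sign that a protein binds there.

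Ubtfl1, an HMG-box gene of the preimplantation embryo, lies at chr9:18404418-18413177 (ENSMUSG00000074502) on the plus strand, with 2 exons. Ubtfl1 stood at 0.0314 and 0.0803 TPM (mESC), 9.95 and 12.03 (2C::GFP+), 31 and 29.7 (2C::GFP+/SGC) and 143 and 89.9 (2C::GFP+/SA). The 4 groups did not overlap, and the replicates of 2C::GFP+/SGC were close together. The log2 difference between 2C::GFP+ and mESC was 8.08 ± 0.52, one of the 2 largest with that of Zfp352. It was 1.37 ± 0.29 and 2.15 ± 0.29 in the next 2 steps. The 250 bases before its start, chr9:18404168-18404417, are printed because another gene starts on the other side of them (described with the neighbouring genes), and hold none of the motifs searched.
Ubtfl1: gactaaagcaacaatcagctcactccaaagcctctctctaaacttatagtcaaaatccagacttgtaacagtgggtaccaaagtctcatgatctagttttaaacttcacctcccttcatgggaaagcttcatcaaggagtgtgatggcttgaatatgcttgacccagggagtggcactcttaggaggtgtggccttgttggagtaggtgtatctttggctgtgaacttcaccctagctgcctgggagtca

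Spz1 encodes a basic helix-loop-helix transcription factor known from the testis and is a gene of a single exon at chr13:92574636-92576172 (ENSMUSG00000046957) on the minus strand. Spz1 stood at 0.0603 and 0.463 TPM (mESC), 7.84 and 9.08 (2C::GFP+), 27.1 and 18.4 (2C::GFP+/SGC) and 216 and 103 (2C::GFP+/SA). The groups did not overlap, and the mESC libraries rested on 4 counts each. The log2 differences were 6.11 ± 0.95, 1.36 ± 0.56 and 3.02 ± 0.55 over the 3 steps from mESC to 2C::GFP+/SA. Without the deep mESC library the first of these was 4.20, and without the shallow one 6.97.

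Tmem92, which encodes a membrane protein of little known function, lies at chr11:94777217-94782703 (ENSMUSG00000075610) on the minus strand. Tmem92 stood at 0.413 and 0.651 TPM (mESC), 48.8 and 54.8 (2C::GFP+), 143 and 105 (2C::GFP+/SGC) and 1261 and 968 (2C::GFP+/SA). In 2C::GFP+/SA that placed it at rank 109 and 110 among all genes by TPM, against 17019 and 15397 in mESC. The log2 differences were 6.78 ± 0.35, 1.16 ± 0.24 and 3.35 ± 0.25, and the last was the largest of the 10 genes in that comparison.

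Abcb5, an ATP-binding cassette transporter, has 28 exons in its longest transcript, the most of the 10 genes, and lies at chr12:118867824-118966421 (ENSMUSG00000072791) on the minus strand. Abcb5 stood at 0.148 and 0.406 TPM (mESC), 5.50 and 4.47 (2C::GFP+), 21.1 and 14.6 (2C::GFP+/SGC) and 98.3 and 43.3 (2C::GFP+/SA). The groups did not overlap, although the libraries of 2C::GFP+/SA were far apart. The log2 differences were 4.67 ± 0.82, 1.71 ± 0.58 and 2.21 ± 0.57.

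Among the windows found, that of Abcb5 holds the single match to a looser form of the DUX motif in which 1 more central base is free, a search added after the window had been read. The 250 bases before its start, chr12:118966422-118966671 on the minus strand, are printed with that match in capitals, 76 bases before the start.
Abcb5: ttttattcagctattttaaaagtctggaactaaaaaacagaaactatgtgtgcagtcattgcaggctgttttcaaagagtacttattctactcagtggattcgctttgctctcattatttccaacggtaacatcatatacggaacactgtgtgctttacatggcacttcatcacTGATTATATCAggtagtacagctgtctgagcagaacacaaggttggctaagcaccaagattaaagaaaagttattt
The looser form occurs in 0.207% of all windows and includes every match to the DUX motif itself.

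Calhm3, a subunit of a voltage-gated channel known from taste cells, lies at chr19:47151609-47157764 (ENSMUSG00000094219) on the minus strand. GENCODE lists it as protein-coding and the RefSeq table as a pseudogene. Calhm3 stood at 0.777 and 1.02 TPM (mESC), 11.5 and 6.98 (2C::GFP+), 42.4 and 15.2 (2C::GFP+/SGC) and 334 and 128.5 (2C::GFP+/SA). The groups did not overlap, but in each reporter group the first library was well above the second, and the SE was wide. The log2 differences were 3.55 ± 1.06, 1.503 ± 0.79 and 3.18 ± 0.79.

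Arg2, the mitochondrial arginase that splits arginine into ornithine and urea, lies at chr12:79130777-79156301 (ENSMUSG00000021125) on the plus strand, with 8 exons. Arg2 stood at 0.260 and 0.374 TPM (mESC), 17.6 and 17.1 (2C::GFP+), 41.7 and 44.9 (2C::GFP+/SGC) and 335 and 233 (2C::GFP+/SA). The groups were far apart compared with the spread inside them. The log2 differences were 5.92 ± 0.38, 1.19 ± 0.24 and 2.92 ± 0.24, among the most precise of the 10 genes.

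Fgf1, the acidic fibroblast growth factor, is a secreted ligand of all FGF receptors and lies at chr18:38838673-38929472 (ENSMUSG00000036585) on the minus strand. Fgf1 stood at 0.229 and 0.195 TPM (mESC), 11.2 and 14.2 (2C::GFP+), 32.2 and 32.7 (2C::GFP+/SGC) and 193 and 122 (2C::GFP+/SA). The groups did not overlap. The log2 differences were 5.77 ± 0.40, 1.25 ± 0.28 and 2.49 ± 0.29.

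Ddit4l, an inhibitor of mTORC1 signalling related to Ddit4, lies at chr3:137621612-137628333 (ENSMUSG00000046818) on the plus strand. It differed from the other 9 genes in being expressed in mESC, at 15.2 and 14.0 TPM. The reporter libraries stood at 23.4 and 22.4 TPM (2C::GFP+), 50.5 and 27.9 (2C::GFP+/SGC) and 325.5 and 208.5 (2C::GFP+/SA). The groups did not overlap, but the step from mESC to 2C::GFP+ was small, 0.64 ± 0.42 (log2), and so was the next, 0.68 ± 0.41. The third step, 2.95 ± 0.43, lay within the range of the other genes. Without the deep library of 2C::GFP+/SGC the second step was 0.18, and without its shallow library 1.05.

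Dcdc2c, which encodes a protein with doublecortin domains, lies at chr12:28437795-28552399 (ENSMUSG00000020633) on the minus strand. It was barely detected: the libraries held 0 and 0 counts (mESC), 9 and 0 (2C::GFP+), 29 and 2 (2C::GFP+/SGC) and 37 and 5 (2C::GFP+/SA). The corresponding TPM were 0.0664 and 0, 0.205 and 0.138, and 0.324 and 0.387. With mESC set at 3 counts over the group, the ratio of 2C::GFP+ to mESC was 3.44. This takes the 9 counts, all from 1 library, as exact and so is no strict lower bound. The log2 differences of the next 2 steps, 1.68 ± 1.16 and 1.11 ± 1.05, were little more than their errors. The listed values of the groups from 2C::GFP+ on did not overlap. The 0 in the second 2C::GFP+ library allowed up to 0.182 CPM, above the 0.136 CPM of the second 2C::GFP+/SGC library, so those 2 groups are not surely apart.

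**Figure D2:**
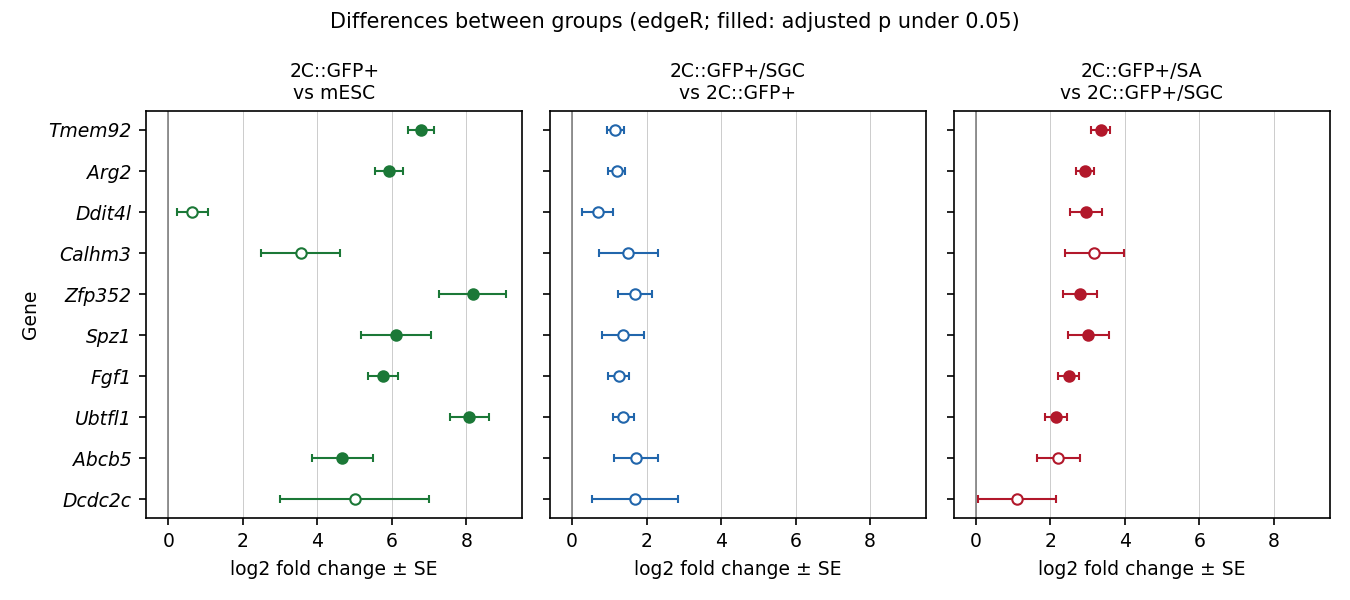
Log2 fold change ± SE of the 10 genes in 3 comparisons of groups of 2 libraries (edgeR, fitted to all 8 libraries), with filled points where the adjusted p was under 0.05. The first panel spreads from 0.64 (Ddit4l) to 8.17 (Zfp352), the second from 0.68 to 1.71 and the third from 1.11 (Dcdc2c) to 3.35 (Tmem92).

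Over the 10 genes, the median log2 difference was 5.85 between 2C::GFP+ and mESC, also with Dcdc2c set at its bound, against 0.04 over all 20608 genes tested. It was 1.36 between 2C::GFP+/SGC and 2C::GFP+ (0.03 over all genes), 2.86 between 2C::GFP+/SA and 2C::GFP+/SGC (-0.02), and 4.02 between 2C::GFP+/SA and 2C::GFP+ (0.01). All 10 values were positive in each comparison. The step to 2C::GFP+/SA exceeded the step to 2C::GFP+/SGC in 9 genes, by 0.50 (Abcb5) to 2.27 (Ddit4l), and was 0.57 smaller in Dcdc2c. These 2 steps share the libraries of 2C::GFP+/SGC, and their difference was not tested.

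A gene was called where edgeR's quasi-likelihood test gave an adjusted p under 0.05 over all tested genes, and all 10 genes passed the filter on low counts. Between 2C::GFP+ and mESC, 7 of 10 were called higher, against 15.2% of all tested genes called higher and 9.12% called lower, and Ddit4l, Calhm3 and Dcdc2c were not. Calhm3 was called there with library totals alone, with the stricter filter, by DESeq2, by limma on both TPM scales and with the 4 libraries compared (adjusted p = 0.000564 to 0.043), and Ddit4l with the 4 libraries compared (0.0258). In that comparison 9 genes had both 2C::GFP+ libraries above both mESC libraries, against 33.9% of tested genes. For SGC0946 alone, set against 2C::GFP+, 0 of 10 and 0.0% of tested genes were called. There 6 of 10 genes and 2037 tested genes had an unadjusted p under 0.05, and DESeq2 called 4 of 10 and 275 genes in all. All 10 genes had both 2C::GFP+/SGC libraries above both of 2C::GFP+, against 24.3% of tested genes, with Dcdc2c so on counts near 0. Between 2C::GFP+/SA and 2C::GFP+/SGC, 7 of 10 were called higher, against 7.92% of tested genes called higher and 8.18% lower, and Abcb5, Calhm3 and Dcdc2c were not. DESeq2 called 9 of 10 in that comparison, with Abcb5 at an adjusted p of 0.00445 and Calhm3 at 0.000608, and so did library totals alone, the stricter filter and limma on both TPM scales. With only the 4 libraries compared, 4 were called. All 10 were apart in that direction, against 28.7%. Between 2C::GFP+/SA and 2C::GFP+, 9 of 10 were called higher, against 14.9% called higher and 13.8% lower, and Dcdc2c was not (limma called it on both TPM scales, adjusted p = 0.0461 and 0.0381), while all 10 were apart, against 32.4%. Since the genes were chosen with these contrasts known, nothing is read from those shares.

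The counts of called genes among the 10 depended on single libraries. Without the second mESC library, 4 were called between 2C::GFP+ and mESC, and 4 between 2C::GFP+/SA and 2C::GFP+/SGC. Without the second 2C::GFP+ library, 4 were called between 2C::GFP+/SA and 2C::GFP+/SGC and 4 between 2C::GFP+/SA and 2C::GFP+. Without the second 2C::GFP+/SGC library, 2 were called between 2C::GFP+/SA and 2C::GFP+/SGC. Between 2C::GFP+/SGC and 2C::GFP+, calls appeared among the 10 without either 2C::GFP+/SA library. Calls appeared over all tested genes in the same fits, so nothing is read from this about the 10. No direction turned in any of these fits.

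The 2 libraries of 2C::GFP+/SA differed from each other in the level of these genes. All 10 were higher in the first library, by a median of 1.00 (log2 CPM), with the lowest difference in Dcdc2c (0.07) and the highest in Calhm3 (1.71), while the median over all tested genes was 0.03. In 2C::GFP+/SGC, 9 of 10 were higher in the first library (median 0.50), in 2C::GFP+ 6 of 10 (median 0.21), and in mESC 3 of 10 (median -0.29). Of the 41 other tested genes of the 2C-like state, 39 were higher in the first 2C::GFP+/SA library, by a median of 1.38. Of 8 primitive endoderm markers, 1 was higher in the first 2C::GFP+/SA library (median -0.71), and in 2C::GFP+/SGC and 2C::GFP+ it was 0 of 8 (medians -1.17 and -0.96), so these markers were mostly lower in the first library of all 3 reporter groups. The first 2C::GFP+/SA library was also 7.88 times deeper, and the part of depth was not tested.

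**Figure D3:**
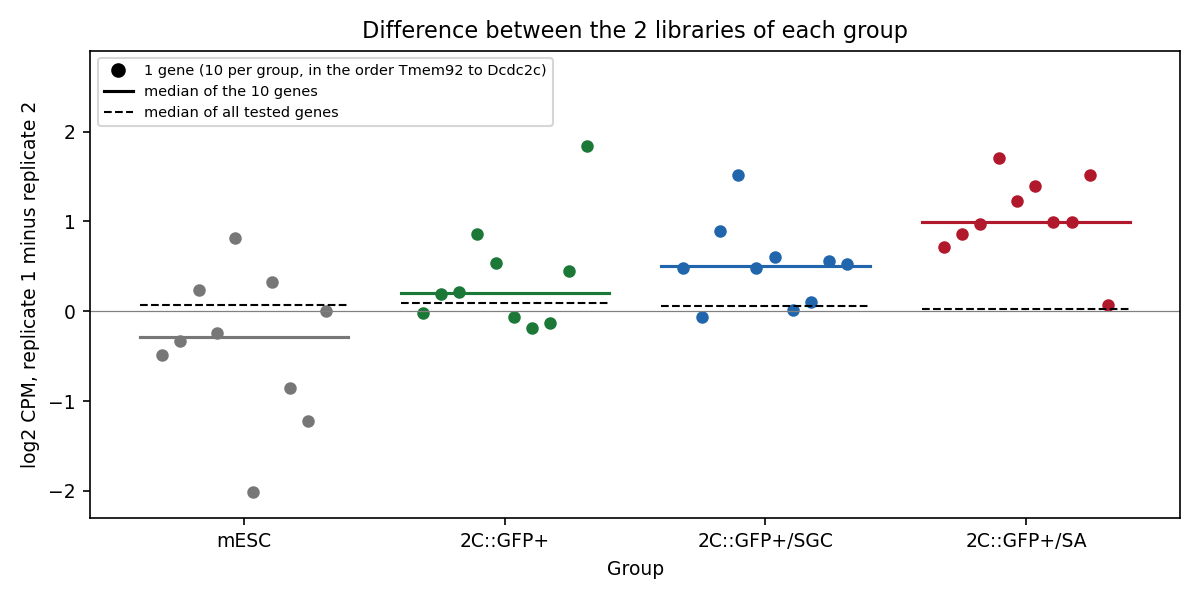
Log2 CPM of replicate 1 minus replicate 2 for each of the 10 genes in each group, with coloured lines for the median of the 10 genes and dashed lines for the median of all tested genes. The points run from -0.19 to 1.84 (Dcdc2c, on 9 and 0 counts) in 2C::GFP+ and from 0.07 to 1.71 in 2C::GFP+/SA, where the median is 1.00.

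The 10 genes shared little sequence with other genes. Of the stretches of 31 bases in a gene's GENCODE transcripts, the share also found in transcripts of another gene was at most 5% in 6 of the 10, with a median of 2.57% and a highest value of 23.6%. Among 43 other genes of the 2C-like state it was at most 5% in 8, with a median of 55.5%. Spz1 and Calhm3 shared none. Abcb5 (0.503%), Fgf1 (0.253%), Ddit4l (1.53%) and Tmem92 (3.62%) shared little, and Ubtfl1 shared 7.68%, Dcdc2c 11.1%, Zfp352 21.5% and Arg2 23.6%. For Ubtfl1, Dcdc2c and Zfp352 the name single-copy holds less strictly than for the others. The 2 genes that share stretches with Arg2 overlap its exons on the other strand, so that share is no sign of a second copy.

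**Figure D4:**
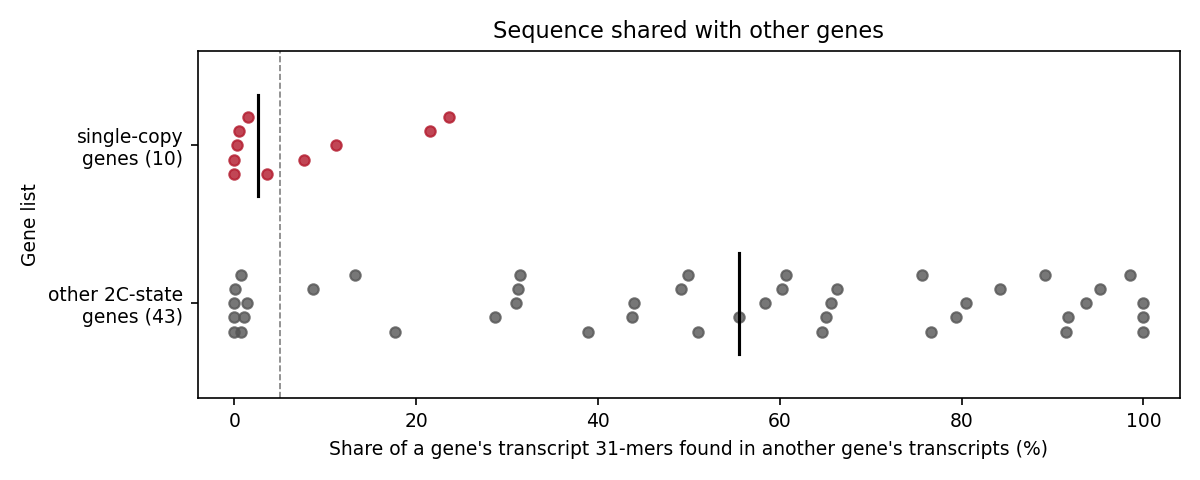
Share (%) of the 31-base stretches of a gene's transcripts that occur in another gene's transcripts, with 1 point per gene, black bars for the medians and a dashed line at 5%. The 10 single-copy genes lie between 0 and 23.6%, and the 43 other genes of the state reach 100%.

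The partners of the genes with the largest shares differed in kind. For Arg2, 255 of the 330 shared stretches are found in Vti1b, a SNARE gene on the other strand whose 3' end overlaps that of Arg2 by 285 bases of exon. The antisense model Gm48780 overlaps it by 105 bases of exon and had 38 counts in all 8 libraries. Vti1b lay at 32.5 to 46.6 CPM in all 8 libraries, while Arg2 stood at 0.117 and 0.154 CPM (mESC) and at 167 and 92.4 CPM (2C::GFP+/SA), so the level of Vti1b did not follow that of Arg2. For Dcdc2c the main partner, D10Wsu102e, lay at 87.7 to 140.3 CPM throughout. Reads on the overlaps of Arg2 cannot be told apart between the strands, since the strand setting is not given in the sources used here. D10Wsu102e lies on chromosome 10 and Dcdc2c on chromosome 12, and how reads that fit both were treated is not given either.

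For Zfp352, Tmem92 and Ubtfl1 the main partner was a pseudogene model that itself had counts, singled out here after its values were seen. Zfp353-ps, a processed pseudogene on chromosome 8, had 2 and 0 counts (mESC), 113 and 10 (2C::GFP+), 527 and 24 (2C::GFP+/SGC) and 1254 and 49 (2C::GFP+/SA). Gm11544, on chromosome 11 like Tmem92, had 0 and 0, 192 and 31, 595 and 42, and 5231 and 346 counts. Gm19174, close to Ubtfl1 on chromosome 9, had 0 and 0, 284 and 20, 631 and 40, and 2965 and 267 counts. These counts were small beside those of the genes themselves, 17073 and 1036 for Zfp352, 87969 and 7638 for Tmem92, and 20164 and 1437 for Ubtfl1 in 2C::GFP+/SA. How reads that fit both were treated is not given in the sources used here, so the values of these pairs are uncertain to that extent.

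The genes lie on 8 chromosomes, with Arg2, Abcb5 and Dcdc2c on chromosome 12. For each of the 10 the nearest protein-coding gene on either side was taken as a measure that the choice of genes did not use, which gave 20 neighbours, of which 13 passed the filter on low counts. Between 2C::GFP+ and mESC 4 of the 13 were called, 2 higher and 2 lower, against 24.3% of all tested genes. With SGC0946 against 2C::GFP+, 0 of 13 were called (3 at an unadjusted p under 0.05). From 2C::GFP+/SGC to 2C::GFP+/SA 1 of 13 was called, against 16.1% of tested genes, and between 2C::GFP+/SA and 2C::GFP+ 3 of 13, against 28.7%. The neighbours' median log2 differences were 0.11, 0.24, 0.32 and 0.59 in these 4 comparisons. Without either mESC library or the first 2C::GFP+ library, 2 neighbours were called in the first comparison. In the third, 0 were called without any 1 of 6 libraries, namely both of mESC, both of 2C::GFP+, the second of 2C::GFP+/SGC and the first of 2C::GFP+/SA. In the second, a call appeared without the second 2C::GFP+/SA library, as calls did over all tested genes.

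Naalad2, a peptidase gene related to the folate hydrolase Folh1, was the neighbour called higher in 3 of the 4 comparisons, more than any other. It lies on the minus strand at chr9:18321951-18402995, and its start is 1423 bases from that of Ubtfl1, with both genes transcribed away from each other. Naalad2 stood at 0.510 and 0.616 CPM (mESC), 3.52 and 3.68 (2C::GFP+), 13.9 and 6.12 (2C::GFP+/SGC) and 67.1 and 23.6 (2C::GFP+/SA). No 2 groups overlapped. The log2 difference between 2C::GFP+ and mESC was 2.73 ± 0.68 (edgeR adjusted p = 0.0309), and between 2C::GFP+/SA and 2C::GFP+ it was 3.67 ± 0.61 (edgeR adjusted p = 0.00563), close to the 3.52 ± 0.31 of Ubtfl1. It was 1.52 ± 0.57 between 2C::GFP+/SGC and 2C::GFP+ (edgeR adjusted p = 0.468) and 2.15 ± 0.56 between 2C::GFP+/SA and 2C::GFP+/SGC (edgeR adjusted p = 0.0473).

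The calls on Naalad2 depended on single libraries and settings, although its direction was not. Between 2C::GFP+ and mESC the edgeR adjusted p was 0.112 to 0.247 without any 1 library of those 2 groups. For the step from 2C::GFP+/SGC to 2C::GFP+/SA it was 0.0651 without the first 2C::GFP+/SA library, 0.244 without the second 2C::GFP+/SGC library, 0.0842 and 0.209 without the first and the second mESC library, and 0.0809 and 0.198 without the first and the second 2C::GFP+ library. Without the first 2C::GFP+/SA library the value there was 1.22 in place of 2.15, and without the second 2C::GFP+/SGC library 1.72. For 2C::GFP+/SA against 2C::GFP+ it was 0.0617 without the second mESC library, and 0.0623 and 0.119 without the first and the second 2C::GFP+ library. Limma on log2(TPM + 1) lost the call between 2C::GFP+ and mESC (0.0623), and the 4 libraries compared lost that between 2C::GFP+/SA and 2C::GFP+/SGC (0.16). The difference between 2C::GFP+/SGC and 2C::GFP+ was called without the filter on low counts (0.0101), with the 4 libraries compared (0.042) and without the second 2C::GFP+/SA library (0.0118). Exons of Naalad2 also overlap those of the pseudogene model Gm19174 on the other strand by 287 bases, and without the strand setting those reads cannot be told apart.

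**Figure D5:**
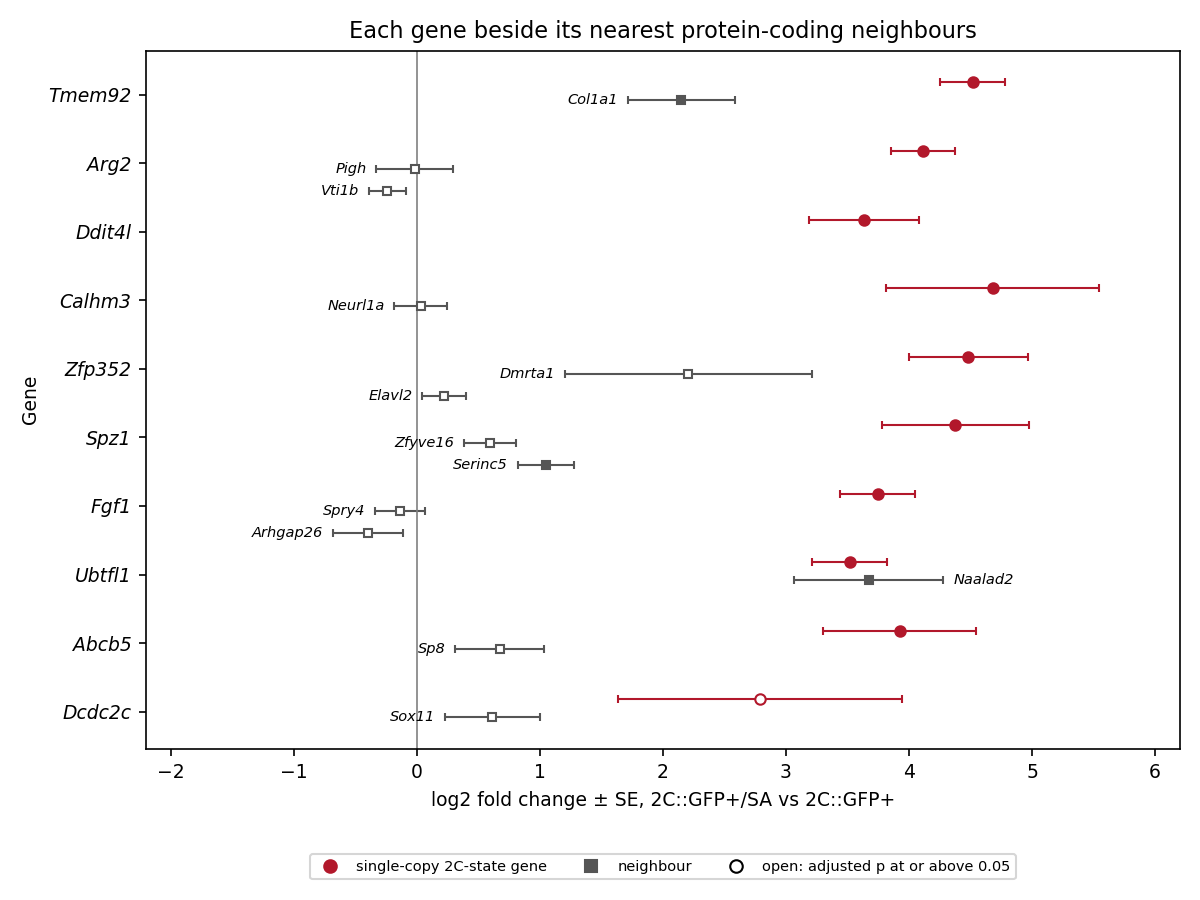
Log2 fold change ± SE between 2C::GFP+/SA and 2C::GFP+ for each of the 10 genes (circles) and for its nearest protein-coding neighbours that passed the filter on low counts (squares), open where the adjusted p was at or above 0.05. Naalad2 at 3.67 lies beside Ubtfl1 at 3.52, and the other neighbours lie below the gene they flank.

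Each of the other called neighbours was called in 1 or 2 comparisons. Spry4, an inhibitor of receptor tyrosine kinase signalling next to Fgf1, rose by 2.31 ± 0.21 (log2, edgeR adjusted p = 2.52e-05) between mESC and 2C::GFP+, from 30.5 ± 8.07 to 152 ± 0.32 CPM (SD, n = 2). With treatment it was at 112 ± 16.2 CPM (2C::GFP+/SGC) and 139 ± 35.1 (2C::GFP+/SA). Serinc5, next to Spz1, fell by 0.93 ± 0.23 between mESC and 2C::GFP+ (edgeR adjusted p = 0.00887) and rose by 1.05 ± 0.23 from 2C::GFP+ to 2C::GFP+/SA (edgeR adjusted p = 0.00388). Its first call was lost without the second mESC library (adjusted p = 0.106), without the first 2C::GFP+ library (0.0506) and by limma on both TPM scales (0.103 and 0.0909). Limma also lost the second call, on both scales (0.0543 and 0.0555). Neurl1a, next to Calhm3, fell by 0.82 ± 0.21 between mESC and 2C::GFP+ (edgeR adjusted p = 0.0119), a call lost without either mESC library (0.052 and 0.0523) or the first 2C::GFP+ library (0.12) and by limma on both TPM scales (0.101 and 0.0995). Col1a1, a collagen gene next to Tmem92 that also stands among the fibroblast markers, stood at 0.474 and 0.975 CPM (mESC), 1.41 and 1.54 (2C::GFP+), 4.17 and 2.45 (2C::GFP+/SGC) and 6.49 and 6.55 (2C::GFP+/SA). No 2 of its groups overlapped, and it rose by 2.15 ± 0.43 from 2C::GFP+ to 2C::GFP+/SA (edgeR adjusted p = 0.00238).

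For each of the 10 genes, the 3 tested genes with the most similar pattern over the 8 libraries were found by the root-mean-square difference of log2 CPM after each gene was centred on its own mean, where 0 is an identical pattern. Predicted gene models were left out. Of the 30 places, 4 went to genes listed for the 2C-like state: Tdpoz4 beside Zfp352 (0.41), Lmx1a beside Spz1 (0.21), Tdpoz1 beside Calhm3 (0.29) and Zscan4b beside Ubtfl1 (0.30). The smallest value was that of Fgf1 and the pseudogene Obox4-ps27 (0.16), with mean levels of 0.00364 CPM (mESC) and 20.5 CPM (2C::GFP+/SA). The log2 values hold a prior count of 2, which shrinks the differences of genes near 0 counts. From mESC to 2C::GFP+ Obox4-ps27 went from 0.00364 to 1.49 CPM and Fgf1 from 0.351 to 20.8. Tdpoz1 and Fam90a1a were at 0.0 CPM in mESC, so likeness to such genes is limited by the prior. Arg2 was most like Spesp1 (0.23), a sperm equatorial segment gene at 0.304 CPM in mESC and 298 in 2C::GFP+/SA. Abcb5 was most like Adgrl3 (0.30), Tmem92 most like Fam90a1a (0.41) and Ubtfl1 most like Zscan4-ps1 (0.27). Ddit4l was most like Glrx2 (0.24), a mitochondrial glutaredoxin gene that was likewise expressed in mESC, at 23.1 CPM, and reached 484 in 2C::GFP+/SA. Dcdc2c was most like Myo7a (0.29), on few counts of its own. The median difference from each of the 10 genes was between 1.65 (Dcdc2c) and 4.35 (Zfp352). It was taken over the tested genes that are neither among the 10 nor predicted models.

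Among themselves the 10 genes form 45 pairs, with a median difference in pattern of 1.16. Arg2 and Fgf1 were the closest (0.27), and Zfp352 and Ddit4l the most different (3.17). All points of these measures share the same 8 libraries, of which the 4 first ones are the deepest.

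The other 43 genes listed for the 2C-like state, 41 of them tested, went with the 10. Between 2C::GFP+ and mESC 37 of the 41 were called higher and 0 lower, against 15.2% and 9.12% of all tested genes, with a median log2 difference of 6.76 (6.72 with 4 genes at 0 counts in mESC set at their bounds), against 5.85 for the 10. With SGC0946 against 2C::GFP+, 0 were called by edgeR, with 10 at an unadjusted p under 0.05 and 7 called by DESeq2, and the median was 1.17. From 2C::GFP+/SGC to 2C::GFP+/SA 14 were called higher and 0 lower, against 7.92% and 8.18% of tested genes (median 2.07). Against 2C::GFP+, 37 were called higher and 1 lower in 2C::GFP+/SA, where 14.9% and 13.8% of tested genes were (median 3.40). The median was larger for the 10 single-copy genes in each of the 3 comparisons among reporter groups and smaller between 2C::GFP+ and mESC, a difference that was not tested. The list was drawn up with results of these data known, and most of its genes are copies that share reads.

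Duxf3, the gene of the DUX factor in this annotation, was at 0.0219 ± 0.0309 CPM (SD, n = 2), 4.85 ± 0.194, 11.3 ± 2.93 and 74.1 ± 3.55 along the 4 groups from mESC to 2C::GFP+/SA. The difference between 2C::GFP+/SA and 2C::GFP+, 3.94 ± 0.24 (log2, edgeR adjusted p = 8.38e-07), lay within the range of the 10 genes, 2.79 to 4.68. Zscan4c was at 1.09 ± 0.56, 176 ± 28.3, 364 ± 10.9 and 1168 ± 751 CPM, and its difference between 2C::GFP+/SA and 2C::GFP+ was 2.73 ± 0.55 (edgeR adjusted p = 0.0206). That call was lost without the second mESC library, either 2C::GFP+ library or the second 2C::GFP+/SGC library, where the adjusted p was 0.0682 to 0.153, and without the filter on low counts (0.0613). Cyp2b23, a cytochrome gene of the list, was the 1 that fell, by 2.01 ± 0.45 between 2C::GFP+ and 2C::GFP+/SA (edgeR adjusted p = 0.00443), a call lost without the first 2C::GFP+ library (adjusted p = 0.0557). The list's counts also moved with single libraries. Between 2C::GFP+ and mESC 23 and 24 were called without the first and the second mESC library and 20 without the second 2C::GFP+ library. For 2C::GFP+/SA against 2C::GFP+ the count was 21 without the second mESC library, 11 and 8 without the first and the second 2C::GFP+ library, and 18 without the second 2C::GFP+/SGC library. For the step from 2C::GFP+/SGC to 2C::GFP+/SA it was 8 without the second mESC library, 8 and 5 without the first and the second 2C::GFP+ library, 6 without either 2C::GFP+/SGC library and 26 without the second 2C::GFP+/SA library. For 2C::GFP+/SGC against 2C::GFP+, calls appeared without either 2C::GFP+/SA library or the second mESC library, in this list and over all tested genes.

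Of 30 genes known to favour or repress the state, all tested, 5 were called higher and 2 lower between 2C::GFP+ and mESC. Those 7 of 30 stand against 24.3% of all tested genes called in either direction, so the count is near the background and is no result about the list. Dppa2, an activator of Dux, rose by 2.96 ± 0.16 (log2, edgeR adjusted p = 3.58e-08), from 32.9 ± 1.49 to 257 ± 3.52 CPM (SD, n = 2), and Dppa4, its partner, by 1.53 ± 0.14 (edgeR adjusted p = 3.88e-06). With SGC0946 against 2C::GFP+, 0 of 30 were called, with 2 at an unadjusted p under 0.05. Between 2C::GFP+/SA and 2C::GFP+/SGC 3 were called higher and 4 lower, where 16.1% of tested genes were called in either direction. Between 2C::GFP+/SA and 2C::GFP+ 4 were called higher and 11 lower, against 14.9% and 13.8% of tested genes. In the last comparison Dppa2 rose by 1.22 ± 0.15 (edgeR adjusted p = 6.56e-05). Chaf1b, a subunit of CAF-1, fell by 1.30 ± 0.14 (edgeR adjusted p = 2.21e-05), Ehmt2, a histone H3K9 methyltransferase, by 0.83 ± 0.15 (edgeR adjusted p = 0.000942) and Lin28a by 0.85 ± 0.15 (edgeR adjusted p = 0.00109). Nelfa, which stands in both lists, was at 97.2 ± 18.1, 279 ± 27.9, 494 ± 104 and 2301 ± 1624 CPM along the 4 groups, and its difference between 2C::GFP+/SA and 2C::GFP+ was 3.04 ± 0.58 (edgeR adjusted p = 0.0185). That call was lost without the second mESC library (0.0728), the first or the second 2C::GFP+ library (0.0826 and 0.161) or the second 2C::GFP+/SGC library (0.071), and without the filter on low counts (0.0522). Without the first and the second mESC library and the first 2C::GFP+ library, 2, 3 and 3 of the 30 were called between 2C::GFP+ and mESC. With SGC0946 against 2C::GFP+, a call appeared without either 2C::GFP+/SA library, as calls did over all tested genes. Without the second 2C::GFP+/SGC library 4 were called between 2C::GFP+/SA and 2C::GFP+/SGC, and without the first 2C::GFP+ library 7 between 2C::GFP+/SA and 2C::GFP+.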

How the data were processed

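Bulk RNA-seq of 8 libraries was deposited as 2 tables, per the file headers with 1 column per library: read counts per gene, which the authors left without normalization, and TPM values made by the authors. Tools listed in the submitters' processing notes are STAR 2.7.4a, featureCounts 2.0.0, Trim Galore 0.6.5, FastQC 0.11.9 and Cell Ranger (no version, no role), with the builds mm10 and GRCm38. The sources used here do not give the strand setting, the annotation release or the treatment of reads with several matches. No column was left out (0).

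GENCODE M21 (GRCm38) holds 55480 of the 55573 identifiers and gave symbols, coordinates, neighbours and transcripts; sequences come from RefSeq (GRCm38.p6). Counts were scaled by TMM (factors 0.942 to 1.059), filtered by filterByExpr (minimum count 10, 20608 genes kept; 19516 had no count) and fitted with 1 term per group over all 8 libraries by the robust quasi-likelihood method of edgeR 4.0.16 in R 4.3.3 (4 residual degrees of freedom). P-values were two-sided and adjusted by Benjamini-Hochberg over all tested genes; SE is the absolute log2 fold change over the square root of F. The common biological coefficient of variation was 20.6%. Log2 CPM used a prior count of 2. The fit was tested on simulated data. A group at 0 counts was set at 3 counts for a bound, with the count of the higher group taken as exact. Counting intervals are exact at 95%, and both cover counting error only. Alternatives were DESeq2 1.42.0, limma 3.58.1 on log2(TPM + 1) and log2(TPM + 0.1), other scalings and filters, the 4 libraries compared, a replicate block and leaving out each of 8 libraries.

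The 10 genes, the gene lists, the marker lists and the motifs were chosen with earlier results of these data known. Genes are named by a rule: the 10 genes, the 3 most similar genes of each, their neighbours, and from each list the called genes with the lowest adjusted p (up to 3 in the commoner direction and 1 in the opposite one) or, with none called, the 2 most abundant, with Duxf3, Zscan4c, Dppa2 and Nelfa always eligible. No label gives the replicate numbers a shared source, so they were not taken as pairs (deviations of same-numbered libraries correlated by 0.041 to 0.142 across the 6 pairs of groups).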

Additional observations from a re-analysis of the deposited data

How the results depend on the processing

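Over 9 settings and 8 left-out libraries, 659 values of the 10 genes and 425 of other named genes gave 0 reversed directions. Between 2C::GFP+/SGC and 2C::GFP+ the counts moved most. Genes called, 0 by edgeR, were 11 with library totals alone, 499 without the low-count filter, 275 by DESeq2, 1 by limma on log2(TPM + 0.1), 326 with the 4 libraries compared and 284 with a replicate block. Of the 10 single-copy genes, 5, 4, 7 and 4 were called without the filter, by DESeq2, with 4 libraries and with the replicate block, and 7, 7, 25 and 5 of the other 2C-state genes. The regulators gave 1 with 4 libraries, and the neighbours 1 without the filter and 1 with 4 libraries. With 4 libraries, the step from 2C::GFP+/SGC to 2C::GFP+/SA gave 2210 genes, 4 of the 10, 9 other 2C-state genes, 4 regulators and 0 neighbours. For the other 2C-state genes it gave 25 with at least 1 CPM in 2 libraries, 23 by DESeq2 and 29 by limma on log2(TPM + 1), and for the regulators 12 with library totals alone and 12 with the replicate block. Between 2C::GFP+ and mESC limma on log2(TPM + 1) called 2924 genes, 4 regulators and 1 neighbour, and on log2(TPM + 0.1) 4 regulators and 2 neighbours. Between 2C::GFP+/SA and 2C::GFP+, 21 other 2C-state genes and 5 neighbours were called without the filter, and 5 neighbours with the replicate block. The block changed no other count by over 1.5 times. It called Ddit4l (adjusted p = 0.0283) and Calhm3 (2.2e-06) between 2C::GFP+ and mESC and Abcb5 (0.0211) and Calhm3 (9.47e-07) between 2C::GFP+/SA and 2C::GFP+/SGC, and lost Zscan4c between 2C::GFP+/SA and 2C::GFP+ (0.0587). Same-numbered libraries share their depth class, and no label says that they share a culture or batch.

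Leaving out 1 library gave 2872 to 5869 genes, 4 to 8 of the 10, 20 to 39 other 2C-state genes, 2 to 9 regulators and 2 to 5 neighbours between 2C::GFP+ and mESC. Between 2C::GFP+/SGC and 2C::GFP+ it gave 0 to 431, 0 to 7, 0 to 15, 0 to 1 and 0 to 1, between 2C::GFP+/SA and 2C::GFP+/SGC 1207 to 3324, 2 to 9, 5 to 26, 4 to 9 and 0 to 1, and between 2C::GFP+/SA and 2C::GFP+ 2890 to 5861, 4 to 9, 8 to 38, 7 to 14 and 2 to 4. An arm left with 1 library is assumed to vary like the other groups. The cause of these changes was not tested. The second libraries limit what can be seen of genes below about 0.244 CPM, and with 2 libraries a group no sample could be flagged as far from the others.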
